A study of Homo sapiens with 6 samples.

Results

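MYC and the MAX network are a set of transcription factor genes whose messenger RNA levels were followed here in 3 established human multiple myeloma lines, RPMI8226, KMS11 and U266, all derived from malignant plasma cells. The listed genes were MYC, MYCL, MYCN, MAX, MXI1 and MNT, taken by gene symbol from the annotation of the array. That annotation named 4 of the 6, MYC, MAX, MXI1 and MNT, out of 14884 named genes in all, and MYCL and MYCN were not analysed here. Where several probe sets carried a symbol, the one with the highest 6-array mean stood for the gene. These were probe set 17072669 for MYC, 16793901 for MAX, 16709108 for MXI1 and 16839606 for MNT. All 4 named members lay above the filter on low values, which kept the 7442 genes whose mean over the 6 arrays was at or above 4.70 log2 units. MYC passed through its values in RPMI8226 and KMS11, since its mean in U266, 4.68, was below that level.

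Each line was transfected with a synthetic mimic of the microRNA miR-10a or with a scrambled control, both at 100 nM with the HiPerFect reagent, and RNA was taken after 48 h. Each line and treatment gave 1 array, hence 3 mimic arrays and 3 control arrays, all Affymetrix whole-transcript arrays. All groups thus share the transfection itself, and untransfected cells were not analysed here. No separate cultures within a line are named in the labels, so every p-value below measures only the spread between these arrays. For differences between lines, that is the spread between the control and the mimic array of a line, after a shared treatment effect. For mimic against control, it is how the change varied over the 3 lines. Either spread may be technical. The cell line field spells the first line RPI8226, whereas its titles give RPMI8226, the name used here.

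MYC proteins bind DNA only as a pair with MAX, at the E-box CACGTG and related sites, and raise transcription of genes for ribosome assembly, nucleotide synthesis, glycolysis and cell division. MAX also pairs with MXI1, with the MXD proteins and with MNT, which occupy E-boxes and recruit SIN3 and histone deacetylase corepressors, and with MGA. MLX is a parallel partner that joins MNT, some MXD proteins and the glucose-sensing factors MondoA (MLXIP) and ChREBP (MLXIPL). In myeloma, rearrangements that place MYC near strong enhancers are frequent.

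The main mature miR-10a strand is shown because the mimic is named for that microRNA. A microRNA recognises its targets mainly through the seed, bases 2 to 8, given in capitals in the RefSeq mature sequence (GRCh38.p14, minus strand, chr17:48579904-48579926). MIR10A lies within the HOXB gene cluster, and the levels of the microRNA itself were not measured here.
hsa-miR-10a-5p: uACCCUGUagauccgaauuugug

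The arrays of a line were nearly alike and the lines were far apart. Over the tested genes the correlation was 0.992 to 0.993 within a line and 0.715 to 0.779 between lines. Of the 9 plasma cell markers listed, 6 were named on the array. IRF4, the plasma cell transcription factor gene, lay between 10.26 and 10.89 log2 units in all 6 arrays and XBP1, the secretory regulator gene, between 9.34 and 9.65. SDC1, which encodes the plasma cell surface marker CD138, ranged from 5.52 in KMS11 to 9.49 in U266, while CD38 was at 3.80 to 4.92 outside RPMI8226 and SLAMF7 at 3.27 to 3.79 outside U266. MZB1, a plasma cell chaperone gene, averaged 10.00, 7.99 and 6.15 in RPMI8226, KMS11 and U266, the same order of lines as MYC. Of genes known for translocation in such lines, FGFR3 and NSD2 were highest in KMS11 (8.66 and 7.82) and CCND1 in U266 (9.99). The named B cell, T cell, myeloid and stromal markers other than BCL6, at 4.35 to 5.67, were below the filter.

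MYC, the oncogene that gives the family its name, spanned the widest range of line means among the 4 members, and U266 stood apart from both other lines. Its values were 10.83 log2 units in the control array and 10.75 in the mimic array of RPMI8226, 9.14 and 9.25 in KMS11, and 4.92 and 4.43 in U266. The 3 lines did not overlap, and the order RPMI8226, KMS11, U266 held in the control arrays and in the mimic arrays alike. RPMI8226 exceeded U266 by 6.11 log2 units, or 69.3-fold (95% confidence interval 53.7 to 89.3, limma, adjusted p = 1.9e-06). KMS11 exceeded U266 by 4.52 log2 units, or 22.9-fold (17.8 to 29.6, limma, adjusted p = 6.67e-06). RPMI8226 exceeded KMS11 by 1.60 log2 units, or 3.02-fold (2.34 to 3.90, limma, adjusted p = 0.000252). The difference from U266 was 5.91 log2 units between the control arrays of RPMI8226 and U266 and 6.32 between their mimic arrays, so each treatment gave it. Detection calls were not analysed here, so whether MYC stood above background in U266 is unknown, and a fold against a value near background may be understated. As in all bulk RNA, fewer cells with the transcript and less RNA per cell cannot be told apart.

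**Figure D1:**
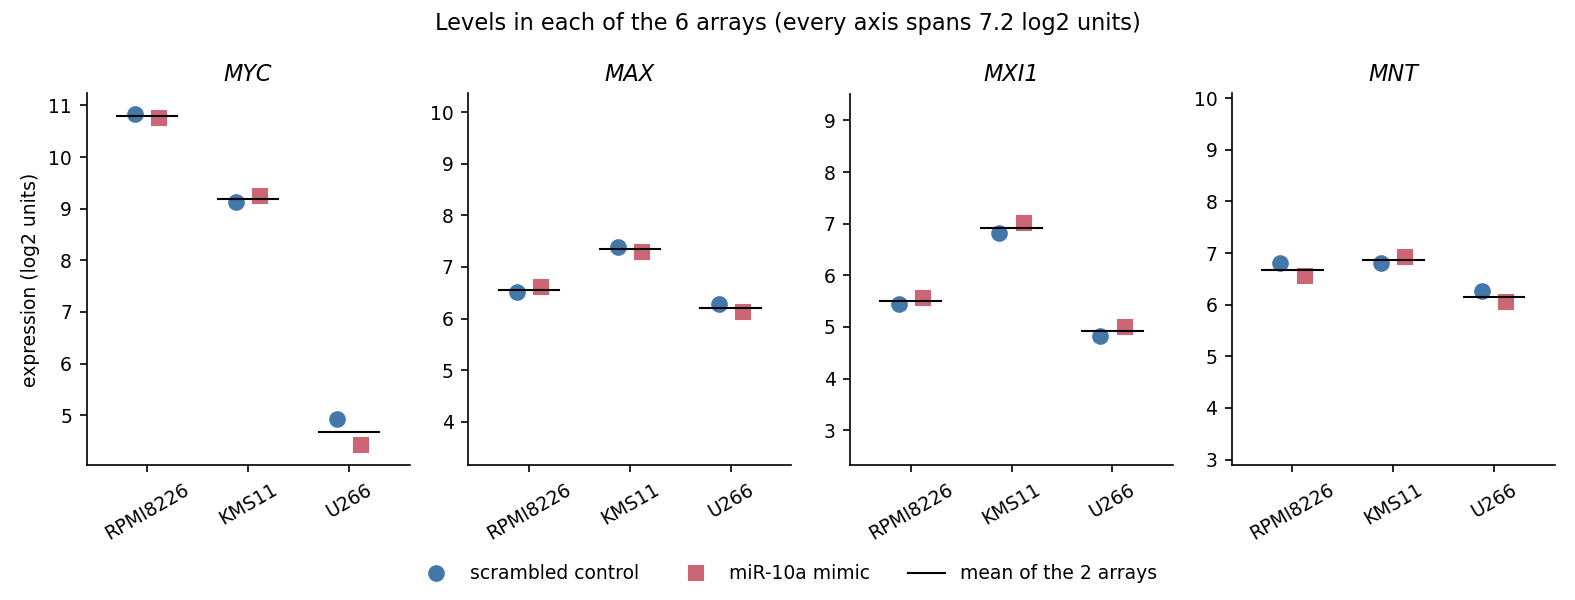
Expression in log2 units (vertical axis) of MYC, MAX, MXI1 and MNT in the control array (circle) and the mimic array (square) of each line, with a bar at the mean of the 2 arrays. Each panel has its own axis with the same span of 7.2 log2 units, so distances compare between panels while levels do not. MYC falls from 10.83 in RPMI8226 to 4.43 in U266, whereas MAX and MXI1 peak in KMS11. For MNT, KMS11 and RPMI8226 were not separated.

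MAX, the obligate partner of MYC, had its highest values in KMS11 and not in the line with the most MYC RNA. Control and mimic values were 6.52 and 6.60 log2 units for RPMI8226, 7.39 and 7.30 for KMS11, and 6.29 and 6.12 for U266. The KMS11 arrays lay above all others, and the RPMI8226 and U266 arrays were neighbours without overlap. KMS11 exceeded U266 by 1.14 log2 units, or 2.21-fold (95% confidence interval 1.88 to 2.59, limma, adjusted p = 0.000177). RPMI8226 was lower than KMS11, with a difference of -0.79 log2 units (limma, adjusted p = 0.000692), the opposite direction to MYC in the same comparison. The gap between RPMI8226 and U266 was 0.35 log2 units, or 1.28-fold (limma, adjusted p = 0.0173). That call was lost without the mimic array of RPMI8226 (0.25, limma, adjusted p = 0.108) and without the mimic array of U266 (0.27, limma, adjusted p = 0.117).

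MXI1, the gene of a MAX-binding antagonist of MYC, followed the same order as MAX over a wider range. RPMI8226 had 5.45 with control and 5.55 with mimic, KMS11 had 6.81 and 7.01, and U266 had 4.83 and 5.00. The 3 lines did not overlap. KMS11 exceeded U266 by 1.99 log2 units, or 3.98-fold (95% confidence interval 3.47 to 4.57, limma, adjusted p = 1.35e-05). RPMI8226 minus KMS11 was -1.41 log2 units, a 2.66-fold difference in favour of KMS11 (limma, adjusted p = 4.25e-05). RPMI8226 exceeded U266 by 0.59 log2 units (limma, adjusted p = 0.00114). A second MXI1 probe set stood at 5.09 and 4.96 in RPMI8226, 6.05 and 6.48 in KMS11, and 4.83 and 4.61 in U266. It gave the same order of lines, with KMS11 1.55 log2 units above U266, but RPMI8226 exceeded U266 by only 0.31 (limma, adjusted p = 0.147), so that smallest MXI1 gap depended on the probe set.

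MNT, the gene of a widely expressed MAX partner that represses E-box genes, varied least. RPMI8226 had 6.80 log2 units with control and 6.56 with mimic, KMS11 had 6.81 and 6.93, and U266 had 6.27 and 6.05. Both U266 arrays were below the other 4, and the control values of RPMI8226 and KMS11 differed by only 0.01. KMS11 exceeded U266 by 0.71 log2 units, or 1.64-fold (95% confidence interval 1.35 to 1.99, limma, adjusted p = 0.00238), and RPMI8226 exceeded U266 by 0.52, or 1.44-fold (limma, adjusted p = 0.00779). Without the control array of RPMI8226, the latter was 0.42 (limma, adjusted p = 0.0656). RPMI8226 and KMS11 were not separated, with a difference of -0.19 log2 units and a 95% confidence interval from -0.47 to 0.09 (limma, adjusted p = 0.188).

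Differences of this kind were common in these arrays and are to be read against that background. All 4 members passed the F test between lines, as did 82.4% of all tested genes. Between RPMI8226 and KMS11, 3 of the 4 members passed, 1 higher and 2 lower in RPMI8226, against 65.0% of tested genes. All 4 members were higher in RPMI8226 than in U266, where 67.4% of tested genes passed and 32.4% were higher. All 4 were also higher in KMS11 than in U266, where 63.8% passed and 34.0% were higher. The median difference of the 4 members from U266 was 0.55 log2 units in RPMI8226 and 1.57 in KMS11, against -0.0034 and 0.04 over all tested genes. When a minimum of 1.5-fold was required (limma's treat), MYC passed in all 3 pairs of lines and MXI1 in the 2 pairs with KMS11. MAX then passed for KMS11 over U266 alone, and MNT in none. At that minimum 24.6% of tested genes passed between RPMI8226 and KMS11, 26.1% between RPMI8226 and U266, and 21.9% between KMS11 and U266.

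No member passed the test of mimic against control. With lines as blocks in limma, 0 of the 4 members and 0% of tested genes passed, while 403 genes (5.42%) had an unadjusted p under 0.05, none of them a member. A plain paired test per gene also called 0, with 402 at that level. For MYC, mimic minus control was -0.08 log2 units in RPMI8226, 0.11 in KMS11 and -0.49 in U266. These signs differ between lines, and the mean was -0.15 ± 0.31 (SD, n = 3 lines; 95% confidence interval -0.45 to 0.15, limma, adjusted p = 0.917). Without U266 the mean was 0.016. The interval covers changes from 0.731-fold to 1.11-fold.

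The change of MYC in U266 was the widest of all 12 member changes. From 4.92 to 4.43, it amounted to 1.40-fold lower, and 2.36% of tested genes in U266 had a change at least as far from 0. No member reached 1.5-fold in any line, a size that 1.05% of tested genes reached in RPMI8226, 0.873% in KMS11 and 1.07% in U266. At 1.2-fold, MYC in U266 was the only one of these 12 changes to pass, where 7.09% of tested genes in that line were lower by that much. Tested against the other 2 lines, the U266 change of MYC differed by -0.50 log2 units (unadjusted 95% confidence interval -0.92 to -0.09, limma, adjusted p = 0.736, from 0.0717 to 0.824 over its alternatives). No gene passed that test in U266, where 471 (6.33%) lay at an unadjusted p under 0.05 (limma), MYC among them, and the fit has 1 residual degree of freedom. The MYC value concerned lies near the filter level, and the part of that low signal in the difference was not tested.

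MXI1 was the single member with the same sign in every line. Mimic minus control was 0.10 log2 units for RPMI8226, 0.20 for KMS11 and 0.17 for U266, with a mean of 0.15 ± 0.05 (SD, n = 3 lines; 95% confidence interval -0.0068 to 0.32, limma, adjusted p = 0.905, from 0.759 to 1.0 over its alternatives). The second MXI1 probe set did not repeat this evenness, at -0.13, 0.43 and -0.22 in the same order of lines, with a mean of 0.03. Changes of MAX were 0.08, -0.10 and -0.17, with a mean of -0.06 ± 0.13 (limma, adjusted p = 0.942). Those of MNT were -0.25, 0.12 and -0.22, with a mean of -0.12 ± 0.20 (limma, adjusted p = 0.917). The limma 95% intervals of all 4 means ended inside 1.5-fold in both directions. They borrow spread from all tested genes, and intervals of the plain paired test were not computed. Larger changes are thus not excluded.

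**Figure D2:**
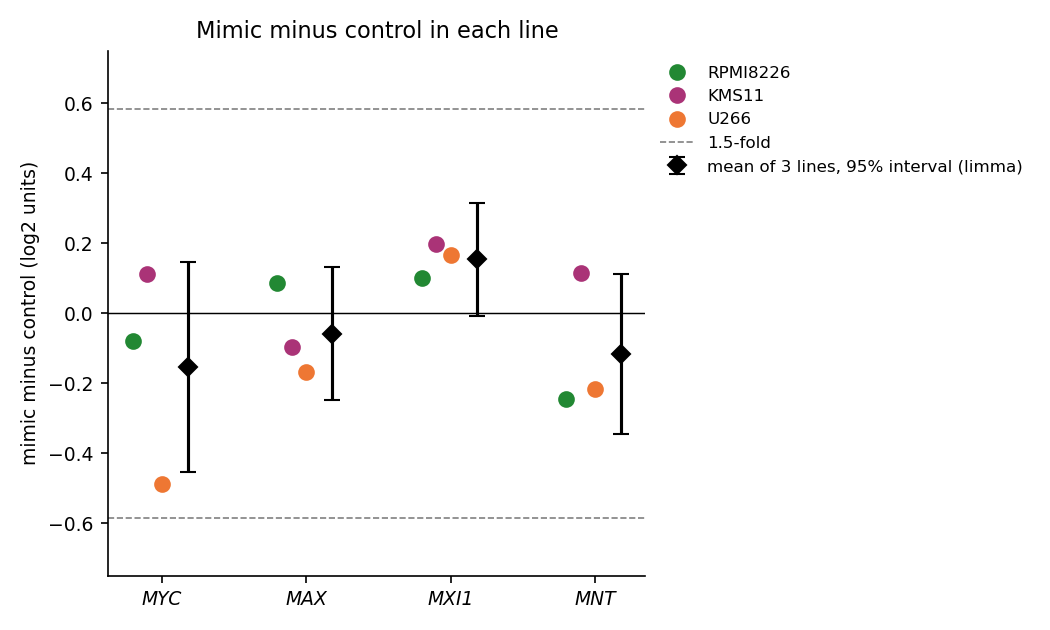
Mimic minus control in log2 units (vertical axis) for each member, with a point for each line and a diamond with the 95% confidence interval of the limma fit for the mean of the 3 lines. Dashed lines mark 1.5-fold. Every interval includes 0, and the point farthest from 0 is MYC in U266 at -0.49.

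The other genes of the MAX network did not share 1 order of lines. Of 7 listed genes, all were named and 5 were tested, with MXD4 and MLXIPL below the filter. KMS11 was lower than U266 for 4 of the 5 and higher for 1, against 29.8% and 34.0% of tested genes, and with a minimum of 1.5-fold for 1 and 0, against 9.61% and 12.3%. MGA, a giant MAX partner that represses germ cell genes, averaged 8.41 log2 units in RPMI8226, 7.47 in KMS11 and 8.83 in U266. Its low point was thus KMS11, where MAX and MXI1 had their highest means (MGA, KMS11 minus U266 -1.37, limma, adjusted p = 5.59e-05). MLX averaged 8.02, 8.20 and 8.82, MXD3 5.75, 5.62 and 6.25, and MLXIP 6.34, 5.56 and 6.13 in the same order. For MLX and MXD3 both other lines were below U266, by -0.79 and -0.50 in RPMI8226 (limma, adjusted p = 0.000311 and 0.0023). A second, weaker MXD3 probe set did not repeat that. It stood at 4.55 and 4.26 in RPMI8226, 4.38 and 4.74 in KMS11, and 4.22 and 4.63 in U266. MXD1, a SIN3-recruiting MAX partner, had the opposite pattern to MLX, at 7.51, 7.41 and 6.65, and was 0.86 higher in RPMI8226 than in U266 (limma, adjusted p = 0.000371). With mimic, none of the 5 passed, and their median change was -0.05 log2 units, against -0.0029 over all tested genes.

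Cofactors that MYC recruits also differed gene by gene. Of 14 listed, 11 were tested. Between RPMI8226 and U266, 5 were higher and 3 lower in RPMI8226, against 32.4% and 35.1% of all tested genes, and 1 and 1 with a minimum of 1.5-fold, against 12.1% and 14.0%. ACTL6A, an actin-like subunit of chromatin remodellers, averaged 9.20 in RPMI8226, 8.20 in KMS11 and 7.52 in U266 and so followed the order of MYC. TRRAP, the scaffold of MYC-bound acetyltransferase complexes, was highest in KMS11, with 9.67 against 8.27 in RPMI8226 and 8.17 in U266. HCFC1, a host cell factor that binds MYC, ran opposite to MYC, at 8.78, 9.38 and 10.24, and BPTF, a nucleosome remodelling factor, at 8.71, 9.82 and 9.26, was lowest in RPMI8226. Among the 4 tested corepressor genes, HDAC1 had the widest span, 7.87 for RPMI8226, 8.53 for KMS11 and 7.85 for U266, and SIN3A averaged 9.21, 9.44 and 9.56. SIN3B and HDAC2 passed in no pair of lines.

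Genes that act on MYC protein turnover were mostly lower in RPMI8226, the line with the highest MYC RNA, than in KMS11. Of 14 listed genes, 7 were tested, and the ligase genes FBXW7, SKP2 and HUWE1 were among those not named on the array. Of the tested genes, 6 were lower and 0 higher in RPMI8226 than in KMS11, against 35.6% and 29.4% of all tested genes. Their median was -1.28 log2 units against -0.04. Against U266, 5 were lower and 1 higher in RPMI8226, against 35.1% and 32.4% of all tested genes. With a minimum of 1.5-fold, 3 were lower and 0 higher, against 14.0% and 12.1%. TRIM32, a ubiquitin ligase gene, averaged 4.42 in RPMI8226, 6.45 in KMS11 and 6.13 in U266. AURKA, the mitotic kinase gene whose product can shield MYC family proteins from degradation, averaged 5.66, 7.39 and 7.10. FBXO32, which encodes an F-box subunit of a ubiquitin ligase, averaged 5.46, 6.87 and 5.26, and USP28, a deubiquitinase that removes ubiquitin from MYC, 7.14, 7.79 and 6.42. The listed genes act in opposing directions on MYC protein, which was not measured here.

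Among genes listed as MYC-induced, those for ribosome biogenesis were mostly highest in RPMI8226 or U266 and lower in KMS11. In the ribosome biogenesis list, 13 of 21 genes were tested. RPMI8226 exceeded KMS11 for 12 of them and was lower for 0, against 29.4% and 35.6% of all tested genes, with a median difference of 1.00 log2 units against -0.04. U266, whose MYC values lay near the filter level, was higher than KMS11 for 10 of the 13 and lower for 1 (KMS11 lower in 29.8% and higher in 34.0% of all tested genes), with a median of KMS11 minus U266 of -0.49 against 0.04. RPMI8226 exceeded U266 for 8 and was lower for 3, against 32.4% and 35.1% of all tested genes, with a median of 0.65 against -0.0034. These directions of the medians held with array medians centred and after quantile normalization. With a minimum of 1.5-fold, 7 of the 13 were higher in RPMI8226 than in KMS11, against 9.63% of all tested genes, and 3 were lower in KMS11 than in U266, against 9.61%. Not every gene had KMS11 lowest, as for BOP1 and FBL, both chosen here after their values were seen. BOP1 averaged 6.99, 5.82 and 5.73 in RPMI8226, KMS11 and U266, without a call between the last 2 lines. FBL averaged 9.33, 9.38 and 8.64 in that order. It was the gene called higher in KMS11 than in U266, by 0.74 (limma, adjusted p = 0.000631).

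The 4 ribosome biogenesis genes with the widest span were all lowest in KMS11 but differed in which line was highest. NOP16, a nucleolar assembly factor, averaged 6.40 log2 units in RPMI8226, 5.40 in KMS11 and 7.10 in U266, so that U266, not RPMI8226, was highest (RPMI8226 minus U266 -0.70, limma, adjusted p = 0.000543). MYBBP1A, a nucleolar protein gene, averaged 7.62, 5.95 and 6.49. NOP2, an rRNA methyltransferase gene, averaged 8.36, 6.72 and 7.18, and BYSL, a factor of small-subunit assembly, 7.14, 5.69 and 6.44. MYBBP1A, NOP2 and BYSL were highest in RPMI8226, and KMS11 differed from U266 by -0.54, -0.45 and -0.75 (limma, adjusted p = 0.0053, 0.0215 and 0.000664).

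The list of MYC-induced metabolic and growth genes was more mixed. Of 36 listed genes, 18 were tested. RPMI8226 exceeded U266 for 11 and was lower for 4, against 32.4% and 35.1% of all tested genes, with a median of 0.50 log2 units. With a minimum of 1.5-fold, 2 were higher and 2 lower, against 12.1% and 14.0%. RPMI8226 exceeded KMS11 for 9 and was lower for 5, against 29.4% and 35.6%, with a median of 0.11. Between KMS11 and U266, 6 were higher and 7 lower in KMS11, against 34.0% and 29.8%, and the median of -0.04 turned to 0.0079 after quantile normalization, so no direction is given. CCND2, which encodes cyclin D2, followed MYC in order, with 10.38 for RPMI8226, 9.39 for KMS11 and 8.51 for U266, and its second probe set kept that order. SHMT2, the mitochondrial serine hydroxymethyltransferase gene, averaged 6.95, 7.90 and 6.36. CTPS1, the CTP synthase gene, averaged 8.90, 7.61 and 8.14, and IMPDH2, of guanine nucleotide synthesis, 8.91, 7.81 and 9.11, both lowest in KMS11. With mimic, 0 of the 13 and 0 of the 18 genes passed, and the list medians were -0.02 and -0.0090, the latter 0.0050 after quantile normalization.

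**Figure D3:**
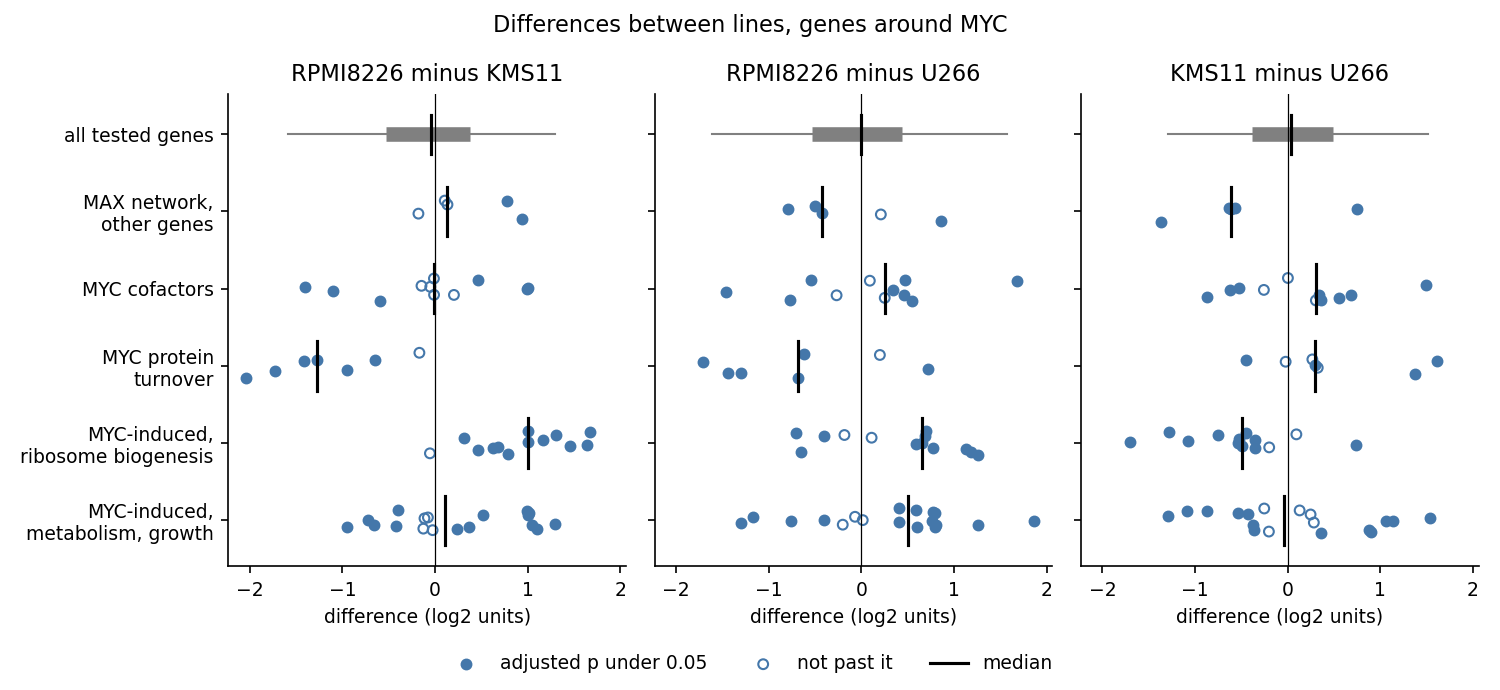
Differences between pairs of lines in log2 units (horizontal axis) for the tested genes of 5 lists, each point a gene, filled where limma's adjusted p was under 0.05, with a black bar at the list median. The grey bar at the top spans the middle 50% of all tested genes and its thin line the middle 90%. The ribosome biogenesis points lie mostly right of 0 in RPMI8226 minus KMS11 (median 1.00) and mostly left of 0 in KMS11 minus U266 (median -0.49).

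The E-box letters CACGTG, which read the same on both strands, were then looked for in RefSeq promoter windows (GRCh38.p14, 250 bases before to 50 bases after each annotated start). Of 5938 tested genes with a window, 777 or 13.1% held the motif, and of all 35116 windows 7.26% did. It was present for 5 of 8 tested ribosome biogenesis genes and 10 of 15 tested metabolic and growth genes with a window. Among the members, MNT had it in its window, and these letters were not in the 2 windows of MAX or the 3 of MXI1. No window was available for MYC, so MYC was not searched. A match is a description of the sequence and not a measured binding site. The stretches below are shown because they hold the same 6 letters upstream of genes whose order of lines differed, with the motif in capitals and 20 bases on either side.
MNT (chr17:2401228-2401273, minus strand): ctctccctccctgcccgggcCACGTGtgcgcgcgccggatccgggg
HK2 (chr2:74835001-74835046, plus strand): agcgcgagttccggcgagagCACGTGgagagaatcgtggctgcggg
CDK4 (chr12:57752386-57752431, minus strand): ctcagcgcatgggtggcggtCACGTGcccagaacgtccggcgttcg
LDHA (chr11:18394456-18394501, plus strand): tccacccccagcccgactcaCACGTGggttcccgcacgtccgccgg
APEX1 (chr14:20455162-20455207, plus strand): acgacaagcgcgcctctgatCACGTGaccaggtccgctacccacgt

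The motif shown began 193 bases before the start site of MNT, 149 before that of HK2, 101 before that of CDK4, 87 before that of LDHA and 44 before that of APEX1. HK2 and LDHA each held it at 2 places in the window of that start site and not in their other annotated window. CDK4 and APEX1 held it at 3 places in theirs. HK2, CDK4, LDHA and APEX1 were chosen after their values were seen. HK2, the hexokinase 2 gene, averaged 7.16 log2 units in RPMI8226, 6.15 in KMS11 and 5.90 in U266, and was 1.26 higher in RPMI8226 than in U266 (limma, adjusted p = 8.23e-05). CDK4, a cell cycle kinase gene, averaged 9.80, 10.53 and 9.39, with KMS11 highest. LDHA, the lactate dehydrogenase A gene, ran opposite to MYC at 6.15, 6.57 and 7.45, and APEX1, a DNA repair endonuclease gene, averaged 8.39, 8.47 and 9.56, both lower in RPMI8226 than in U266 by -1.30 and -1.17 (limma, adjusted p = 4.69e-05 and 7e-05).

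Over all tested genes, the line differences of genes with and without the motif were set side by side. The 777 genes with CACGTG had a median RPMI8226 minus U266 difference of 0.00047 log2 units, and the 5161 with a window but without it -0.04. Of the former 33.6% were called higher and 32.2% lower in RPMI8226, and of the latter 31.9% and 37.4%. For RPMI8226 minus KMS11 the shares were 32.3% higher and 34.2% lower with the motif and 28.9% and 37.4% without. For KMS11 minus U266 they were 32.3% higher and 34.2% lower with it and 34.9% and 30.7% without. These shares are descriptions, and the difference between both sets of genes was not tested.

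TXNIP, the gene of a thioredoxin-binding inhibitor of glucose uptake that is induced by MondoA and MLX and listed here also as MYC-repressed, ran in the same order as MYC. RPMI8226 had 10.32 log2 units with control and 10.29 with mimic, KMS11 had 8.64 and 8.63, and U266 had 7.13 and 6.63. The lines did not overlap. RPMI8226 exceeded U266 by 3.43 log2 units, or 10.8-fold (limma, adjusted p = 1.01e-05), KMS11 exceeded U266 by 1.76 (limma, adjusted p = 0.000142), and RPMI8226 exceeded KMS11 by 1.67 (limma, adjusted p = 0.000156). A second TXNIP probe set gave 6.51 and 6.81, 4.76 and 4.80, and 3.10 and 2.68, the same order. ARRDC2, the other tested gene of the MondoA list, was likewise higher in RPMI8226 than in U266, by 0.74 (limma, adjusted p = 0.000526), whereas MLXIP and MLX RNA did not share that order.

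An annotated promoter window of TXNIP held a pair of CACGNG boxes with 5 bases between them, and its other window did not. The arrangement is a form of the carbohydrate response element, and only this form was searched, on both strands. Neither box here is CACGTG. The motif was present in 20 of the 35116 windows, or 0.057%, and for 9 of the 5938 tested genes with a window, or 0.152%. It is shown because TXNIP was the only listed gene with it, with the paired boxes in capitals, beginning 88 bases before the start site of the window that held it.
TXNIP (chr1:145996641-145996677, minus strand): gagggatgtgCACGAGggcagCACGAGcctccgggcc

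Other genes of the MYC-repressed list were few on the array, with 3 of 16 tested. KLF6, a zinc finger growth regulator gene, averaged 10.10 in RPMI8226, 9.36 in KMS11 and 8.44 in U266, and so also followed the order of MYC, while NDRG1, a stress-responsive gene, averaged 6.07, 5.86 and 6.06 and passed in no pair of lines. How many of all tested genes share the order of MYC, given here for several genes, was not counted. THBS1, the thrombospondin gene of the same list, was below the filter and ran the other way, at 3.01, 3.10 and 5.28, and is named after its values were seen. Without the filter, 7 genes of the list were tested and the median of RPMI8226 minus U266 was -0.06, against 1.66 for the 3 genes above it. Of the 7, 2 were called higher and 1 lower, where 39.0% of all genes tested without the filter were called in either direction. Among listed regulators of MYC transcription, 6 of 11 were tested. STAT3, the interleukin 6 signalling factor gene, averaged 7.87, 9.46 and 9.41, and IKZF3 (Aiolos) 6.22, 7.50 and 7.25, both lowest in RPMI8226. IKZF1 (Ikaros) was likewise lower in RPMI8226, by -1.05 against KMS11 and -1.09 against U266. NFKB2, a noncanonical NF-kB subunit gene, was 0.93 higher in RPMI8226 and 0.88 higher in KMS11 than in U266 (limma, adjusted p = 0.000243 and 0.000358).

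The genes with profiles most like each member were found by the root mean square difference over the 6 arrays, after each gene was centred on its own mean. With 3 lines of 2 arrays, such likeness rests on 3 independent points. Nearest to MYC were DOCK10, a guanine nucleotide exchange factor gene, at 0.13 log2 units, CD99, a surface glycoprotein gene, at 0.17, and MAF, the transcription factor gene activated by translocation in some myelomas, at 0.30. MAF stood at 10.57 and 10.56 in RPMI8226, 8.96 and 8.91 in KMS11, and 4.57 and 4.96 in U266. Its change with mimic in U266 thus had the opposite sign to that of MYC. TXNIP was at 1.28, and 57 tested genes were nearer to MYC than it was. Nearest to MAX were RALB (0.03), TRAPPC11 (0.04) and EML4 (0.05), and nearest to MXI1 were TMEM238 (0.05), HAX1 (0.06) and RHBDD2 (0.11). MNT spanned less than 1 log2 unit between line means and was left out of this description.

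**Figure D4:**
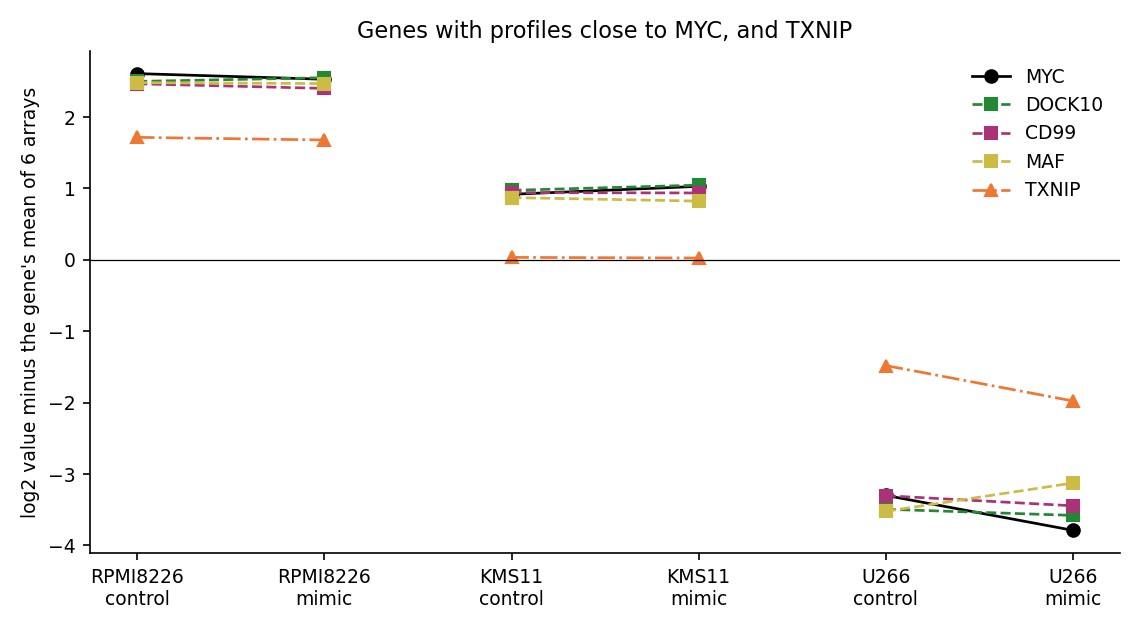
Log2 values minus the mean of each gene over the 6 arrays (vertical axis) in the control and mimic array of each line (horizontal axis), for MYC, its 3 nearest genes and TXNIP. DOCK10, CD99 and MAF overlie MYC in RPMI8226 and KMS11, and in U266, before centring, MYC goes from 4.92 with control to 4.43 with mimic while MAF goes from 4.57 to 4.96.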

How the data were processed

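Deposited by the authors was a log2 expression table of 53617 probe sets on 6 arrays, for which the submitters' processing notes name Affymetrix Expression Console 1.3.0. How background, normalization and summarization were handled is not given in the sources used here, nor is a build. The platform annotation gave 1 symbol to 16098 probe sets, and all matched the RefSeq gene table (GRCh38.p14). The number of arrays limits the precision.

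Tests used lmFit and trend-free eBayes of limma 3.58.1 in R 4.3.3, were two-sided, and took Benjamini-Hochberg adjustment over 7442 genes and a threshold of 0.05. Line and treatment were terms, leaving 2 residual and 3.82 prior degrees of freedom. Lines pair the arrays: deviations of a line's arrays from their treatment means correlated at 0.967 to 0.97. Scripts were tested on simulated data. Members and gene lists were chosen with earlier results of these data known, and lists were written from general knowledge. Named were all members, the tested MAX network genes, up to 4 genes per list with the widest span of line means, and the 3 genes nearest to each member whose span was at least 1 log2 unit. The cell type markers IRF4 and XBP1, and BOP1, FBL, THBS1, HK2, CDK4, LDHA and APEX1, were named outside that rule, after their values were seen. Alternatives were no filter, the upper 25% of genes, quantile normalization, centred medians, mean of probe sets, variance trend, no block, no treatment term, a 1.5-fold minimum, a plain paired test and leaving out lines or arrays.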

Additional observations from a re-analysis of the deposited data

How the results depend on the processing

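In all 168 combinations of member, pair of lines and alternative the direction was kept, and in 159 also the side of the threshold. Many of these could not change direction. No filter, the upper 25% of genes, the variance trend, no treatment term and the 1.5-fold minimum leave the estimate itself unchanged. So does the mean of probe sets for a member with a single probe set, and leaving out an array of the line outside the pair. With a minimum of 1.5-fold, MAX was no longer called in RPMI8226 minus KMS11 (-0.79, limma, adjusted p = 0.135) or RPMI8226 minus U266 (0.35), nor were MXI1 (0.59) and MNT (0.52) in RPMI8226 minus U266 or MNT in KMS11 minus U266 (0.71), and genes called fell to 1828 (RPMI8226 minus KMS11), 1942 (RPMI8226 minus U266) and 1627 (KMS11 minus U266). In the upper 25% of genes, where fewer genes were tested, the F test called 3474 and the same pairs 2933, 2899 and 2852, against 6135, 4838, 5017 and 4748. With the other MXI1 probe set, an alternative chosen after seeing the data, RPMI8226 minus U266 was 0.31.

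Leaving out single arrays gave RPMI8226 minus U266 from 0.25 to 0.46 for MAX and from 0.42 to 0.62 for MNT. Leaving out lines gave a mean mimic change of MYC from -0.28 to 0.016, the latter without U266. The mimic test called 0 genes under each alternative, also with no replicate block, where MYC kept -0.15 and 2 genes lay at an unadjusted p under 0.05 (limma). For the mimic change of U266 against the other lines, 10 genes were called in the upper 25% and 28 with a variance trend, and for KMS11 15 with a variance trend, no member among them. The U266 difference for MXI1, 0.02, turned to -0.0050 with centred medians, -0.18 with the mean of its probe sets and -0.37 with the other probe set. Beyond the tests with fewer genes or a minimum fold, the cause was not tested. The absence of detection calls limits what can be said of MYC in U266.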
